A study of Oryza sativa Japonica Group with 22 samples.

Results

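The genes described here are those whose expression set the seeds of the rice line CGS apart from the seeds of all other lines in this RNA-seq series. They were chosen by their measured values. A gene belongs to the set when its mean was at least 1 CPM (counts scaled to the library size) over the 22 libraries and the 5 CGS libraries all lay above, or all below, every one of the other 17. Of 22113 genes with that mean, 382 (1.73%) lay above and 157 (0.71%) below. A gene listed in the pathway table of the study was left out, as were 3 genes with all 18 transgenic libraries on one side of the 4 Taipei libraries. This left 535 genes, of which 379 were higher and 156 lower in CGS, and all 535 passed the filter on low counts of the tests used below. The separation of the CGS libraries is therefore how the genes were picked, and every contrast of members with CGS is given as a description, without a test. Nothing is read from the 1.73% and the 0.71%.

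Taipei (n = 4 libraries) is the untransformed japonica cultivar Taipei 309, the parent of all other lines. SSA (n = 3) carries the sunflower seed albumin gene HaSSA, fused to an ER retention signal and driven by a wheat glutenin promoter active in the endosperm. CGS (n = 5) is 1 transgenic line with AtD-CGS, a cystathionine gamma-synthase of Arabidopsis altered so that feedback no longer restrains it, carried into plastids by a pea transit peptide under the maize ubiquitin promoter. SAT (n = 3) is 1 line with EcSAT, the serine acetyltransferase of E. coli, also directed to plastids and under the ubiquitin promoter. CGSxSSA (n = 4) and SATxSSA (n = 3) descend from crosses of homozygous CGS or SAT plants with SSA, in a later generation, and each pools libraries from 2 segregants of its cross into 1 group. The labels do not say which library came from which segregant. Every library was made from milkripe seeds of an individual plant, harvested by panicle 10 days after flowering.

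Cystathionine gamma-synthase joins cysteine to O-phosphohomoserine in the plastid and so commits carbon and sulfur to methionine. Threonine synthase competes for the same substrate, and in Arabidopsis the native enzyme is held in check through the stability of its own mRNA. Serine acetyltransferase acts upstream, where it makes O-acetylserine, the carbon skeleton of cysteine. CGSxSSA also carries the AtD-CGS transgene of the CGS line. A gene at the CGS level in CGSxSSA could not enter the set, so the cross is no check on the transgene here. CGS is a single line, and the effect of its transgene cannot be told apart from other features of that line.

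The libraries held between 29642343 and 41585957 counts in genes. SATxSSA replicate 1 stood apart, with 20.3% of its reads assigned to no gene, against 11.8% to 14.9% in the other libraries. The identifiers of the files are rice locus numbers without descriptions, and only 1 of 38866 was found in the reference table at hand, so no names, functions or sequences of the members are given. The first digits of an identifier are those of its chromosome, and numbers rise along the chromosome. Of 9 starchy endosperm markers, 8 averaged more than 200 CPM in every line and Os02g0249900 stayed between 1.46 and 1.92 CPM. The summed endosperm markers ranged from 79591 to 106991 CPM in CGS and from 92839 to 121959 CPM in Taipei. They were between 28785 and 61140 CPM in the lines with HaSSA. Counts were scaled by trimmed means (TMM), and the choice mattered for the higher genes. Scaled by library size alone, the same rule picked 95 higher and 155 lower genes, of which 81 and 90 were members of the set. That scaling moved the median of all genes in CGS against CGSxSSA from -0.00074 to -0.15 on the log2 scale.

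**Figure D1:**
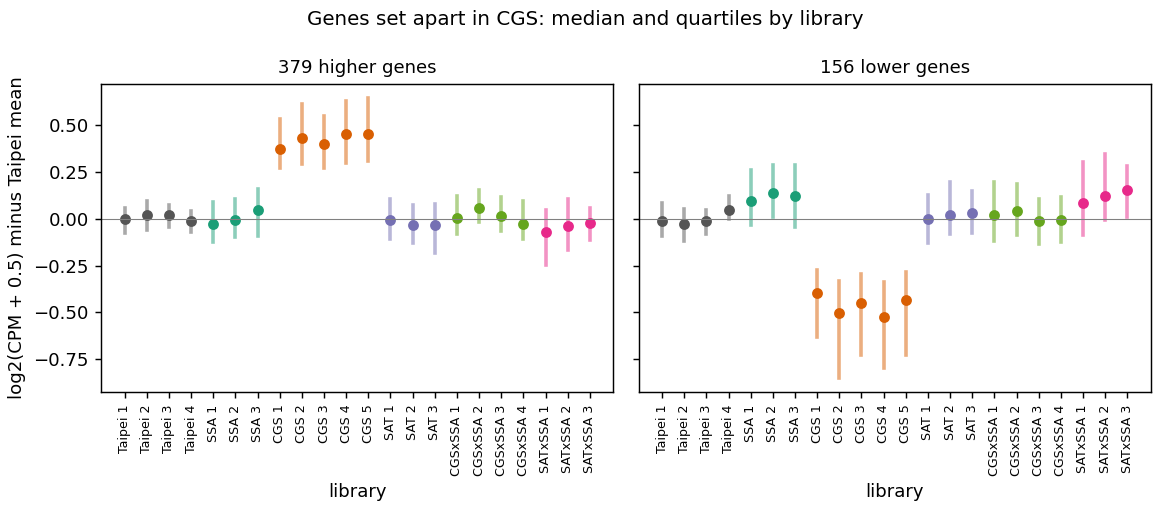
Median (point) and quartiles (bar) of log2(CPM + 0.5) minus the Taipei mean, for the 379 higher genes (left) and the 156 lower genes (right), in each of the 22 libraries. The 5 CGS libraries had medians of 0.37 to 0.45 and of -0.52 to -0.40, as the choice of the genes requires, while the medians of the other libraries lay between -0.072 and 0.15.

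Most members differed by small amounts. Against Taipei, the fitted log2 fold change had a median of 0.43 over the higher genes (1.35-fold), with quartiles of 0.30 and 0.63. It had a median of -0.52 over the lower genes, with quartiles of -0.80 and -0.34. The median of all 26821 genes tested was 0.0089. Only 17 of the 379 higher and 24 of the 156 lower genes differed from Taipei by at least 1 on the log2 scale, while 228 higher and 73 lower genes differed by less than 0.5. The SD of log2(CPM + 0.5) over the CGS libraries had a median of 0.0997 for the higher and 0.117 for the lower genes, against 0.162 over all genes with a mean of at least 1 CPM. Over the other 17 libraries it was 0.133 and 0.166, against 0.183. A rule of full separation favours genes of small spread, so nothing is read from these SDs. Members were of middle abundance, with a median of the mean level of 17.9 CPM for the higher and 18.0 CPM for the lower genes, against 12.0 CPM for all genes. The space between the nearest CGS library and the nearest other library was under 0.1 on the log2 scale for 233 higher and 90 lower genes. At the edge of the rule, Os02g0701600 was just inside, with 77.71 to 85.1 CPM in CGS and at most 77.70 CPM elsewhere. Os01g0919700 was just outside, with 10.95 CPM in the lowest CGS library and 10.96 CPM in the highest other one. For the lower genes, Os07g0598800 was just inside, with at most 2.072 CPM in CGS and at least 2.073 CPM elsewhere, and Os02g0216200 was just outside, at 0 in all CGS libraries and from 0 to 5.68 CPM in the others.

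The higher gene that stood farthest from the other lines was Os09g0499400. It had 8.17, 7.26, 10.4, 6.61 and 6.29 CPM in the CGS libraries. In Taipei it had 0.778, 0.884, 0.425 and 0.53 CPM, and in CGSxSSA 0.753, 0.398, 0.458 and 0.725 CPM. CGSxSSA, which also carries AtD-CGS, overlapped Taipei, while its separation from CGS is required by the rule. The log2 fold change was 3.56 ± 0.28 (SE) against Taipei (11.8-fold) and 3.72 ± 0.28 against CGSxSSA. The other 17 libraries ranged from 0.242 to 0.996 CPM with a median of 0.574.

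Os07g0147500 combined a wide space with a high level. Its CGS libraries had 232, 273, 299, 271 and 266 CPM, against 134, 136, 114 and 88.4 CPM in Taipei. The other 17 libraries ranged from 81.3 to 156 CPM, with a median of 114 CPM, and both SAT and SSA libraries were among the highest of these. Its level in CGS was 2.27-fold that in Taipei. Os05g0320300 was the steadiest of these genes, at 25.9 ± 0.787 CPM (SD, n = 5) in CGS and 15.0 ± 0.644 CPM (n = 4) in Taipei. The remaining higher genes with the widest spaces were Os01g0878900, Os01g0643800 and Os12g0183200. Their folds against Taipei were 3.59, 1.69 and 1.68.

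The space exceeded 0.5 on the log2 scale for 12 lower and 5 higher genes, while its median was 0.071 for the higher and 0.073 for the lower genes and its maximum 2.18 and 1.08. Os01g0838350 had 7.05, 4.61, 6.26, 4.67 and 2.61 CPM in CGS and 32.5, 15.5, 24.6 and 26.3 CPM in Taipei. Elsewhere it reached 177 CPM in SATxSSA replicate 1, the library with the high share of reads in no gene, against 41.2 and 48.8 CPM in the other SATxSSA libraries. Its log2 fold change in CGS was -2.30 ± 0.39 against Taipei and -2.82 ± 0.39 against CGSxSSA.

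Os09g0122500 and Os01g0384450 were low in CGS and even across the other lines. The first had 1.66 ± 0.598 CPM in CGS and 7.17 ± 1.16 CPM in Taipei, and the other 17 libraries stayed between 5.72 and 11.1 CPM. The second had 0.59, 1.83, 3.89, 1.22 and 1.29 CPM in CGS and from 7.46 to 15.7 CPM elsewhere. Os02g0668500 fell to 9.82 to 14.4 CPM in CGS, against 26.4 to 35.8 CPM in Taipei, while SAT was on the other side of Taipei, at 53.5, 66.5 and 45.7 CPM. The contrast of SAT against Taipei holds no CGS library, but the CGS libraries share in the estimate of the spread, and the rule bounds both lines from below. In that contrast Os02g0668500 rose by 0.80 ± 0.14 on the log2 scale (adjusted p = 0.0031, edgeR quasi-likelihood test). Over the set, 6 members passed in this comparison, 5 in a fit without CGS and 1 in a fit of both groups alone. Of all genes 185, 260 and 219 passed in these fits. Os02g0514500 had 6.28 to 9.73 CPM in CGS, 17.4 to 32.2 CPM in Taipei and 42.1 to 60.2 CPM in SSA, where it rose by 1.25 ± 0.25 against Taipei (adjusted p = 0.0052). The plot of the 12 widest spaces shows both genes with Taipei as the line nearest to CGS.

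**Figure D2:**
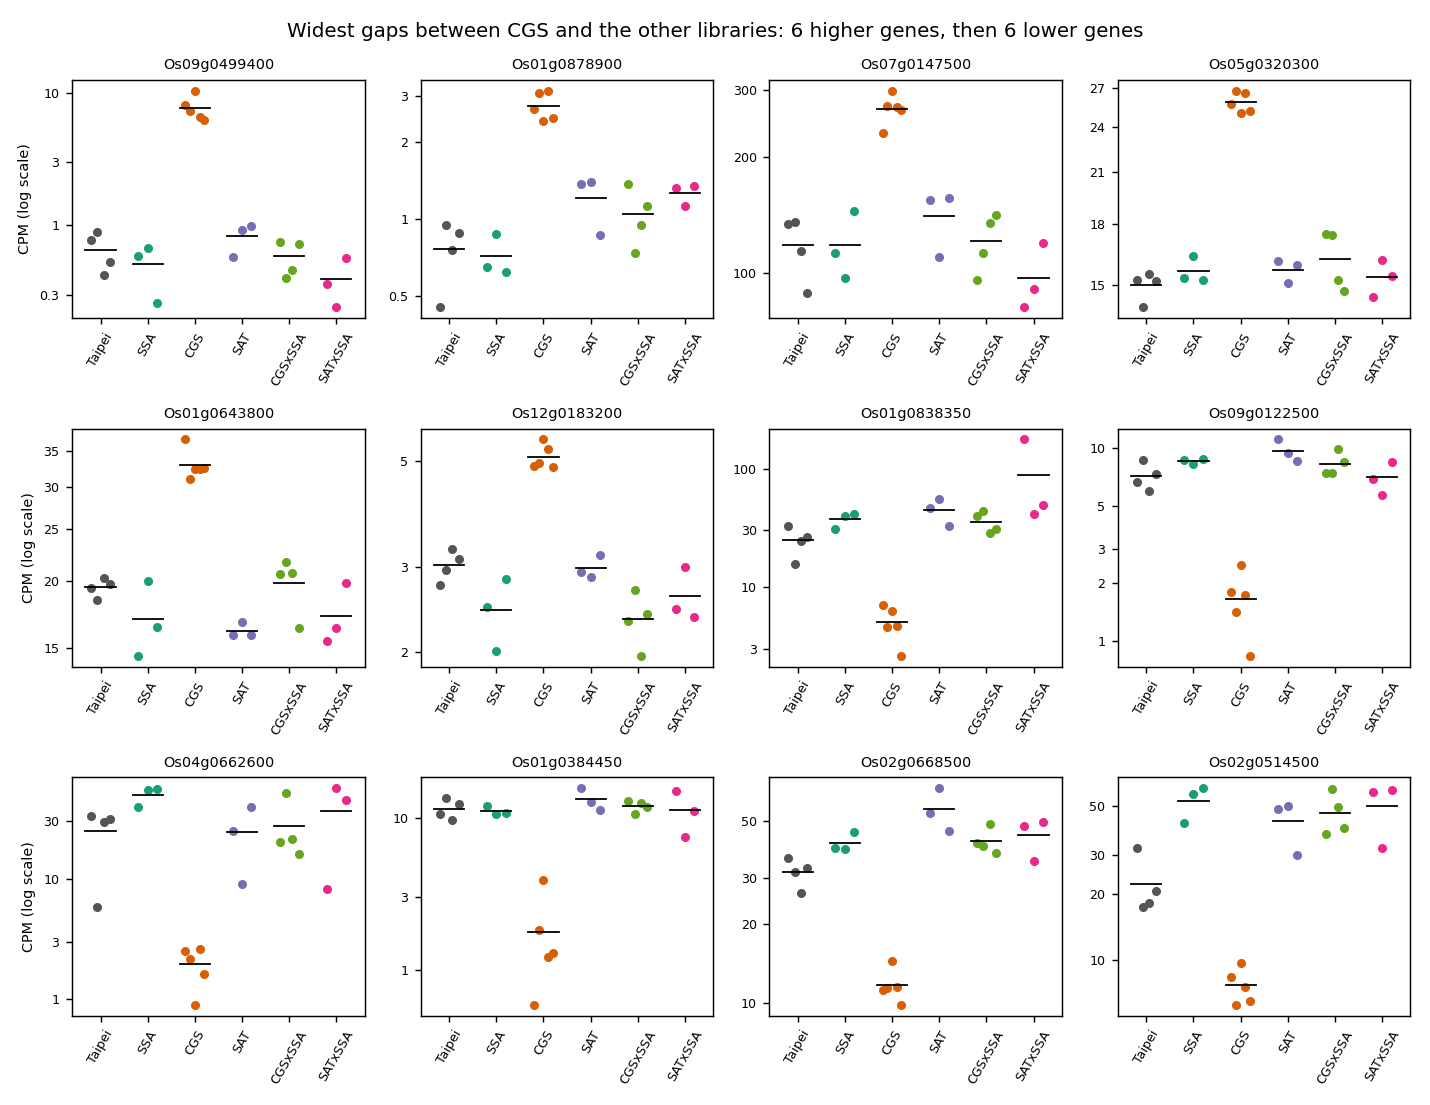
Level in CPM (log scale) of the 6 higher and the 6 lower genes with the widest space between CGS and the other libraries, with 1 point per library and a bar at the mean of each line. Os09g0499400 lay between 6.29 and 10.4 CPM in CGS and below 1 CPM in the other 17 libraries. The lower gene Os04g0662600 had at most 2.6 CPM in CGS and 5.79 CPM in the lowest other library.

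Among the most abundant of the higher genes, Os03g0592500 averaged 1274 ± 149 CPM in CGS and 885 ± 49.8 CPM in Taipei, with 1025 ± 38.7 CPM (n = 4) in CGSxSSA and 960, 1020 and 1092 CPM in SSA, which has no AtD-CGS. Os07g0622200 had 730 ± 45 CPM in CGS, Os01g0501800 had 683 ± 55.6 CPM and Os07g0558400 had 608 ± 44.2 CPM, and their folds against Taipei were 1.28, 1.40 and 1.33. Among the most abundant of the lower genes, Os04g0465600 averaged 465 ± 52.6 CPM in CGS and 767 ± 106 CPM in Taipei. Os10g0148100 averaged 272 ± 56.5 CPM in CGS and 606 ± 147 CPM in Taipei, and spread from 408 to 1222 CPM over the other 17 libraries. Os11g0621300 and Os09g0484200 both averaged near 440 CPM in CGS (439 and 439.9) and near 570 CPM in Taipei (572 and 571).

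CGSxSSA also carries AtD-CGS, but its 4 libraries are among the 17 from which every member had to lie apart in CGS. A gene brought to the CGS level in CGSxSSA as well could not enter the set, so the counts below do not show whether AtD-CGS moves genes in the cross. Against its other parent SSA, none of the 535 members passed an adjusted p of 0.01 in edgeR, where 0.112% of all 26821 genes did. At an unadjusted p under 0.05 there were 54 members, against 2838 of all genes. DESeq2 called 3 members, all lower in CGSxSSA, and 79 of all 35859 genes it tested. The median log2 fold change of the higher genes was 0.025 and that of the lower genes -0.11, against 0.0013 over all genes. Of the lower genes, 118 of 156 (75.6%) were lower in CGSxSSA than in SSA, against 49.6% of all genes, and of the higher genes 225 of 379 (59.4%) were higher, against 50.3%. Against Taipei, however, the lower genes had a median of 0.11 in SSA, where 72.4% were higher, and of 0.013 in CGSxSSA. Between CGSxSSA and SSA, 147 of the 156 lower genes differed by less than 0.5. The rule bounds the SSA and CGSxSSA values on the side of CGS, so neither the size nor the direction of a shift within the set is independent of the choice.

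**Figure D3:**
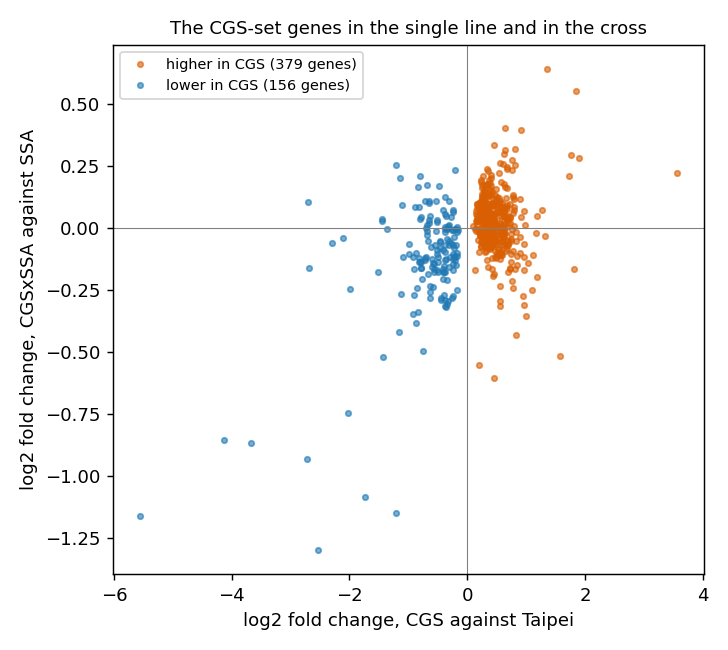
Fitted log2 fold changes of the 535 genes in CGS against Taipei (horizontal axis) and in CGSxSSA against SSA (vertical axis), 1 point per gene, higher genes in orange and lower genes in blue. The sides of the horizontal axis follow from the choice of the genes. On the vertical axis the higher genes had a median of 0.025 and the lower genes a median of -0.11, and no gene passed the test.

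Against Taipei, 5 members differed in CGSxSSA. The 2 higher genes among them, Os05g0486600 and Os07g0642100, fell, and of the 3 lower genes Os05g0475550 and Os06g0602400 rose and Os08g0396700 fell. Over all genes 0.798% rose and 0.287% fell. Os08g0396700 was therefore the only member that passed this test in the direction it has in CGS. It had 20.3, 18.2, 18.4, 18.8 and 20.1 CPM in CGS, 26.4, 20.6, 22.8 and 23.0 CPM in CGSxSSA and 31.8, 32.1, 37.0 and 35.9 CPM in Taipei. The CGSxSSA libraries lay below those of Taipei without overlap, their place above CGS being set by the rule, and the change against Taipei was -0.56 ± 0.086 (adjusted p = 0.00036). Without Taipei replicate 3, or without CGSxSSA replicate 2, 3 or 4, the 5 members became 3. The calls over all genes went from 291 to 208, 235, 213 and 212, in that order. The medians over the set in CGSxSSA against Taipei were 0.0075 for the higher and 0.013 for the lower genes, against 0.0069 over all genes.

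Of the 379 higher genes, the line whose mean came nearest to CGS was SAT for 93, SSA for 91, CGSxSSA for 85, Taipei for 69 and SATxSSA for 41. Of the 156 lower genes it was Taipei for 50, SAT for 45, CGSxSSA for 31, SATxSSA for 17 and SSA for 13. The shares for CGSxSSA were 22.4% of the higher and 19.9% of the lower genes. Genes at the CGS level in CGSxSSA could not enter the set, so nothing is read from these shares about AtD-CGS. As a measure of how many genes set a line apart by the same kind of rule, SSA had 220 genes above and 87 below all other libraries, SAT 249 and 206, SATxSSA 112 and 160, Taipei 56 and 42, and CGSxSSA 6 and 8. These counts depend on the number of libraries in a line and were not tested against each other.

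A few members differed from Taipei in the lines without AtD-CGS. In SSA 10 members passed the test, of which 8 lower genes rose and 2 higher genes fell, where 1.83% of all genes rose and 0.63% fell. In SAT 4 lower genes rose and 2 higher genes fell (0.388% and 0.302% of all genes). In SATxSSA 8 lower genes rose and 2 higher genes fell (0.779% and 0.436%). The rises were thus 8, 4 and 8 of the 156 lower genes, and the falls 2 of the 379 higher genes in each comparison. Nothing is read from these shares. The rule favours this direction, since a lower gene cannot fall below CGS in any other line. The comparisons share the Taipei libraries. In all, 21 members passed in at least 1 of the 5 comparisons, 6 higher and 15 lower genes. The matching count over all genes is not given here, so nothing is read from the 21. Leaving out any 1 library of SSA or Taipei reduced the 10 members of the SSA comparison to between 3 and 6. Calls over all genes fell as well, from 659 to between 247 and 638. The 6 members of the SAT comparison became 1 without SAT replicate 1, 2 without SAT replicate 2 and 3 without Taipei replicate 4. The calls over all genes went from 185 to 97, 114 and 111 in these fits. The 10 of the SATxSSA comparison became 5 without Taipei replicate 2 or SATxSSA replicate 1 and 6 without SATxSSA replicate 2. Here the calls over all genes went from 326 to 200, 185 and 165. Scaled by library size alone, 85 members passed in SSA, where 2999 of all 26821 genes did.

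Os05g0475550 and Os06g0602400 passed in all 4 comparisons with Taipei. Os05g0475550 was nearly absent from Taipei, at 0.454, 0.671, 0.516 and 0.56 CPM, and lower still in CGS, at 0.325, 0.0339, 0.269, 0.263 and 0.105 CPM. These CGS levels rest on 11, 1, 9, 8 and 4 reads. In the 13 libraries of the remaining lines it had from 2.62 CPM in SAT replicate 3 to 4.69 CPM in SSA replicate 3. Its log2 fold change against Taipei was 2.85 ± 0.24 in CGSxSSA, 2.82 ± 0.25 in SSA, 2.58 ± 0.25 in SAT and 2.82 ± 0.25 in SATxSSA, with adjusted p-values of at most 1.73e-06 (edgeR). CGSxSSA had 4.29, 4.01, 3.73 and 3.98 CPM, at the level of its SSA parent and far from its CGS parent. Os06g0602400 had 18.7, 19.6, 19.3, 19.4 and 18.7 CPM in CGS, 28.9, 24.5, 33.0 and 39.4 CPM in Taipei and from 42.6 to 63.0 CPM in all other lines. Taipei lay below the remaining lines without overlap.

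The higher gene Os07g0642100 had 21.3, 17.4, 20.1, 19.8 and 21.6 CPM in CGS and 15.8, 13.3, 17.2 and 16.0 CPM in Taipei. It was lower in the 3 lines with HaSSA, where it had from 8.98 to 11.8 CPM, and fell against Taipei by 0.74 ± 0.11 on the log2 scale in SSA, by 0.52 ± 0.10 in CGSxSSA and by 0.64 ± 0.11 in SATxSSA. SAT, at 16.8, 15.5 and 12.2 CPM, overlapped Taipei.

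Os10g0100300, a further higher gene, had 24.9, 25.0, 24.7, 26.1 and 30.4 CPM in CGS, 13.6, 18.7, 19.2 and 18.6 CPM in Taipei and 18.7, 16.2 and 15.5 CPM in SAT. In SATxSSA it was almost absent, with 3, 1 and 0 reads in the 3 libraries against 419 to 632 reads in Taipei. It was the only member that fell by at least 1 on the log2 scale in SATxSSA, and its parents SAT and SSA both expressed it, SSA at 19.2, 21.7 and 22.1 CPM. This gene was singled out after its values were seen.

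**Figure D4:**
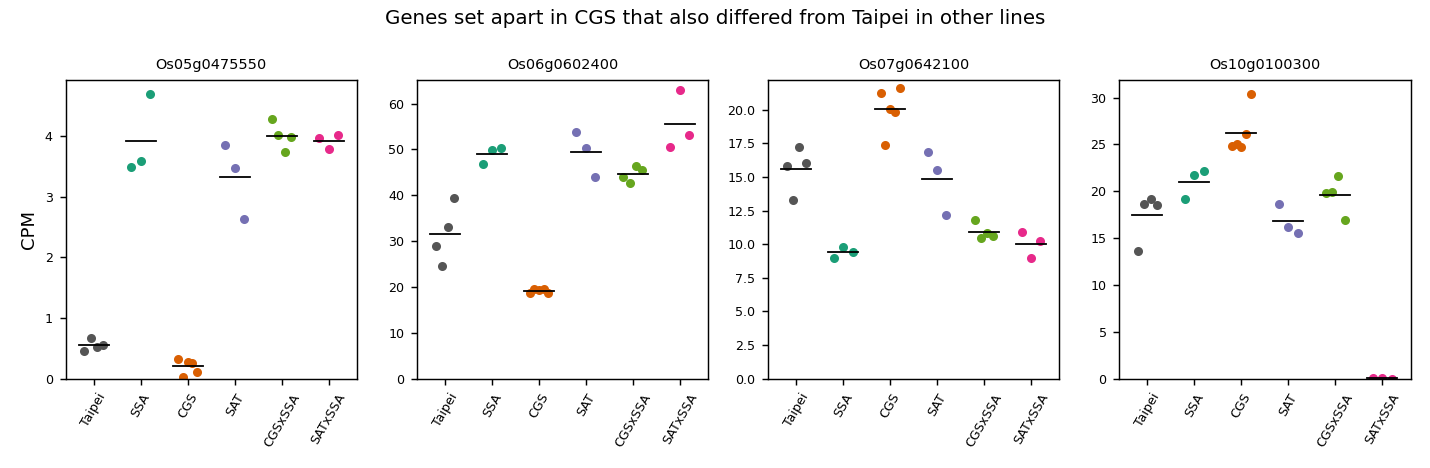
Level in CPM of 4 members that also differed from Taipei in other lines, with 1 point per library and a bar at the mean of each line. Os05g0475550 was below 0.7 CPM in Taipei and CGS and at least 2.62 CPM in the remaining lines. Os10g0100300 had at most 0.09 CPM in the 3 SATxSSA libraries.

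Some of the members most reduced in CGS also varied widely within other lines, and did so together. Os01g0633500 had the largest negative fold change of the set in CGS against Taipei, -5.56 ± 1.04. It had 0.148, 0.0339, 0.239, 0 and 0.0526 CPM in CGS, from 5, 1, 8, 0 and 2 reads, so the size of the fold is uncertain. In Taipei it had 7.95, 0.427, 4.68 and 5.89 CPM, in SAT 3.41, 0.916 and 4.75 CPM, and in SATxSSA 1.02, 8.67 and 7.09 CPM. Taipei replicate 2, SAT replicate 2 and SATxSSA replicate 1 were thus the low libraries of their lines.

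In Taipei, SAT, CGSxSSA and SATxSSA, but not in SSA, the libraries had the same order for Os04g0662600, with 33.1, 5.79, 29.4 and 31.3 CPM in Taipei, 25.0, 9.05 and 39.4 CPM in SAT and 8.16, 56.6 and 44.8 CPM in SATxSSA. In SSA the order was reversed, with 11.7, 11.2 and 8.77 CPM for Os01g0633500 and 39.8, 54.3 and 56.3 CPM for Os04g0662600. Over the 17 libraries outside CGS, Pearson's r of log2(CPM + 0.5) between both genes was 0.97. With Os01g0633500 as the reference, chosen because its fold change was the largest, 4 more lower genes reached r of 0.8. They were Os01g0760800 (r = 0.91), Os06g0687100 (0.89), Os12g0615700 (0.84) and Os01g0300000 (0.81). The higher gene Os01g0136800 also did (0.81). These 6 lower genes were among the 24 that differed from Taipei by more than 1, and their log2 fold changes in CGS ranged from -5.56 to -2.02. In the CGS libraries Os01g0760800 also had only 0 to 7 reads and Os01g0300000 only 1 to 6. Of all genes with a mean of at least 1 CPM, 80 (0.362%) reached r of 0.8 with the reference. The libraries share scaling and depth, and their r with deviations from the line means was from 0.81 to 0.97 for the genes named.

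Taipei replicate 2 and SAT replicate 2, which carry no AtD-CGS, came nearest to the CGS libraries for Os01g0633500. The mean of the 6 lower genes had r of -0.44 with the log2 summed endosperm markers, 0.44 with the summed green tissue markers and -0.31 with the summed embryo and aleurone markers over the 17 libraries. It had r of -0.29 with the share of reads in no gene. In bulk seeds, fewer cells of a type and less RNA per cell cannot be told apart.

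**Figure D5:**
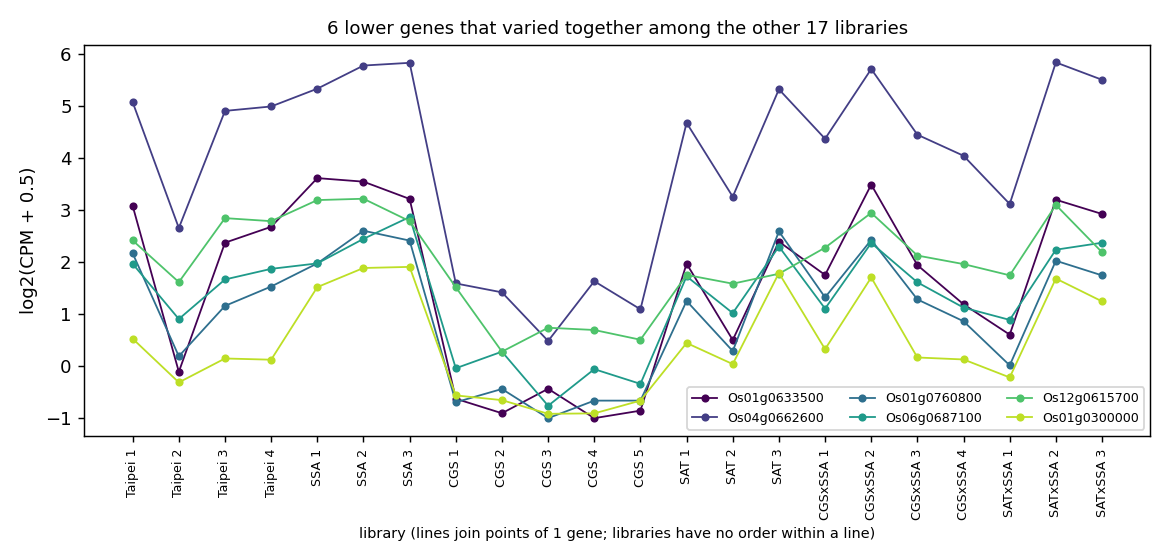
log2(CPM + 0.5) of the 6 lower genes that varied together, in each of the 22 libraries, with a line for each gene. All 6 were at their lowest in CGS, and Taipei replicate 2, SAT replicate 2 and SATxSSA replicate 1 were the lowest of their lines for the reference Os01g0633500, at 0.427, 0.916 and 1.02 CPM.

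Several of the abundant higher genes moved with green tissue markers. The sum of 5 such markers was 3601 to 4221 CPM in CGS and 2891 to 3263 CPM in Taipei. It was 3316 to 3499 CPM in SSA and 3121 to 3654 CPM in CGSxSSA. In SAT and SATxSSA it was 2803 to 2900 CPM and 2632 to 3544 CPM. All 5 had a higher mean than in Taipei not only in CGS but also in SSA and CGSxSSA. One of the 5, Os12g0292400, is itself a member of the set, at 172 CPM on average in CGS and 113 CPM in Taipei. Over the 17 other libraries, 14 higher genes (3.69%) had r of at least 0.8 with the log2 of this sum, against 0.172% of all genes with a mean of at least 1 CPM. Among them were Os01g0501800 (r = 0.93), Os07g0558400 (0.87) and Os03g0592500 (0.85), which are 3 of the 4 most abundant higher genes. The part of green tissue in their levels was not tested. The median r of all higher genes with this sum was 0.054. The sum of 5 embryo and aleurone markers was 2049 to 3837 CPM in CGS and 2930 to 4210 CPM in Taipei.

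By position, the set was spread over all 12 chromosomes. Chromosome 1 held 34 of the 156 lower genes (21.8%) and 14.4% of all genes with a mean of at least 1 CPM, and chromosome 2 held 61 of the 379 higher genes (16.1%) and 11.9% of all genes. Of the genes next to a member in the order of identifiers, leaving out genes below 1 CPM, 4.87% were members, against 2.42% of all genes. There were 26 such neighbouring pairs, 20 with both genes higher, 4 with both lower and 2 in opposite directions. Without positions or descriptions, overlap between neighbours was not examined.

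When members at most 10 identifiers from the next member were chained, 160 members formed 73 runs, 60 of them pairs. A run could thus span more than 10 identifiers. How many runs a random set of this size would form was not examined, so nothing is read from these runs. The longest held 4 genes on chromosome 8, in which Os08g0242700 and Os08g0242800 were higher and Os08g0244100 and Os08g0244750 lower in CGS. Their folds against Taipei were 1.15, 1.26, 0.90 and 0.53. On chromosome 2, Os02g0599700, Os02g0600000 and Os02g0600033 were all higher. Os02g0600033 had the largest change of these, with 25.6, 21.5, 22.9, 26.6 and 25.6 CPM in CGS and 12.3, 14.3, 16.0 and 13.9 CPM in Taipei, and the log2 fold changes of the other genes were 0.43 ± 0.08 and 0.56 ± 0.09. Across the 17 libraries outside CGS, neighbours in this run were hardly related (r of 0.26 and 0.031). A run of lower genes on the same chromosome held Os02g0829500, Os02g0830200 and Os02g0830300, with folds of 0.85, 0.57 and 0.77. Of these, Os02g0830300 rose by 0.42 ± 0.085 in SATxSSA against Taipei (adjusted p = 0.0064).

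Reads from the opposite strand of the members were counted separately. They reached a mean of 1 CPM for 128 higher and 46 lower genes. Of these, 88 higher genes had a higher and 31 lower genes a lower opposite-strand mean in CGS than in the other libraries. Of all 11710 genes with that mean, 5627 were higher and 6083 lower. The medians were 0.19 and -0.16 on the log2 scale, against -0.011 over all genes. The libraries were fully separated on that strand for 1 higher and 1 lower gene, against 73 above and 55 below among all 11710 genes with that mean.

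The genes of sulfur metabolism and protein folding that the study tabulated are no members and were read as the pathway background of the transgene. Of 67 such genes tested, 2 rose and none fell in CGS against Taipei at an adjusted p under 0.01 in edgeR, where 2.34% of all genes rose and 1.36% fell, and 10 of the 67 had an unadjusted p under 0.05. The genes that rose were Os01g0978100 of the list for sulfate assimilation, from 38.1 ± 3.63 CPM in Taipei to 50.5 ± 6.0 CPM in CGS, and Os03g0738400 of the list of genes related to the O-acetylserine cluster. Os03g0738400 was the tabulated gene that the rule would have taken, so its call is no independent result, with 246 to 286 CPM in CGS and 188 to 233 CPM in the other libraries. No sulfate transporter (of 13 tested), ER chaperone (24), homocysteine methyltransferase (4) or endogenous CGS (1) or SAT (3) gene passed, with unadjusted p under 0.05 for 3, 3, 0, 0 and 0 of them. DESeq2 called 5 of the tabulated genes in this comparison, among them 1 ER chaperone and 1 sulfate transporter. Neither the unadjusted nor the DESeq2 counts have a share over all genes beside them, so nothing is read from these counts.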

How the data were processed

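Directional single-end libraries were made by the authors from rRNA-depleted seed RNA. Per the submitters' processing notes and the study's methods, reads were aligned to IRGSP-1.0 with STAR 2.7.1a, and the deposited files hold raw read counts per gene, not normalized, in 3 columns (unstranded and each strand). Multi-mapped reads are in no gene, and transgene reads were not analysed here. The anti-strand counts, the column used in the study, were scaled by TMM and given as CPM. Rows that name no gene held 27.3% to 38.6% of the reads and were left out.

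The 535 members and all lists were chosen with earlier results of these data known. All 26821 genes kept by filterByExpr were tested in 1 fit of the 22 libraries in edgeR 4.0.16 (R 4.3.3) with the robust quasi-likelihood test, with line as the only factor, Benjamini-Hochberg adjustment over all genes and the threshold of 0.01 that the study set. Standard errors were derived from each log2 fold change and its F statistic. DESeq2 1.42.0, RLE scaling, no TMM, other filters, unstranded counts, a replicate block, other fits and leaving out each library were alternatives. The scripts were tested on simulated data. No 2 libraries of a line agreed within sampling noise. The p-values cover the spread between plants of a line, not between independent lines. Replicate numbers did not pair the libraries.

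Named genes were the 6 higher and 6 lower members with the widest space between CGS and the rest (0.5 CPM added), the 4 most abundant of each, members called in CGSxSSA, the longest runs of neighbours and the genes at the edge of the rule. Others were picked after their values were seen. Gene classes by description were not counted. Markers were written from general knowledge and could not be checked against an annotation. No column of the authors' own comparisons was in the files. The authors' published significance tests of the tabulated genes were not set beside the calls given here.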

Additional observations from a re-analysis of the deposited data

Results flagged for a closer look

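In the 37 named members, the highest and lowest library of Taipei, CGS and CGSxSSA were compared with the other libraries of the line, which makes 111 groups of 4 or 5 libraries, of which chance flags about 1 in 20. A library stood far from the rest in 3 of them. Os04g0662600 had 5.79 CPM in Taipei replicate 2, against 29.4 to 33.1 CPM in the other Taipei libraries, and 51.8 CPM in CGSxSSA replicate 2, against 16.0 to 21.3 CPM in the other libraries of that line. Os01g0643800 had 36.8 CPM in CGS replicate 1, against 31.0 to 32.5 CPM in the other CGS libraries.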

How the results depend on the processing

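Set against 379 higher and 156 lower genes, library size without TMM picked 95 higher genes. Leaving out each library in turn gave 360 to 527 higher and 157 to 232 lower genes. Without TMM the medians in CGS against CGSxSSA moved to 0.269 and -0.637, and the members called became 8 for CGSxSSA, 85 for SSA and 41 for SATxSSA against Taipei. Of all 26821 genes, 377, 2999 and 1544 were called in these comparisons. For CGSxSSA against SSA, where none was called, the threshold of 0.05 gave 2, the fit of 17 libraries without CGS 1, the fit of both groups alone 1, DESeq2 3 and leaving out each library 0 to 0. Over all genes, the threshold of 0.05 called 57, the fit without CGS 39, the fit of both groups 26 and DESeq2 79. Leaving out each library called 19 to 28 of all genes there. For CGSxSSA, SSA, SAT and SATxSSA against Taipei, in that order, the threshold of 0.05 gave 9, 21, 12 and 29 members, and leaving out each library 3 to 4, 3 to 6, 1 to 5 and 5 to 11. At the threshold of 0.05, 463, 1534, 631 and 1238 of all genes were called. With each library left out, these were 207 to 292, 247 to 638, 97 to 175 and 165 to 385. DESeq2 gave 8, 15, 12 and 24 members, and 445, 1110, 551 and 876 of all genes. Fits of both groups alone gave 3, 8, 1 and 2 members, and 239, 513, 219 and 220 of all genes. The fit with the replicate block gave 0 members for CGSxSSA against SSA and 5, 6, 3 and 7 against Taipei. Of all genes it called 26 for CGSxSSA against SSA and 247, 418, 151 and 227 against Taipei. The correlation of same-numbered libraries ranged from -0.26 to 0.36, so the numbers were not taken as pairs. RLE scaling, the limits of 0.2 and 5 CPM and unstranded counts kept both counts of the set within 1.5 times. Of 220 estimates for the 37 named members under other settings, 192 moved by less than the SD between CGS libraries, 28 by more, and none changed sign. Where CGS has under 10 reads a library, counting error limits the fold.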

Other observations

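Of the genes that fulfilled the rule but had all transgenic libraries on one side of Taipei, Os10g0432200 stood out by its level. It had 46.0 to 55.7 CPM in CGS, 17.1 to 22.8 CPM in CGSxSSA and 1.68 to 4.69 CPM in Taipei, and at most 28.5 CPM in any library outside CGS. Os03g0582900 had 3.42 to 4.34 CPM in CGS, 2.93 to 3.40 CPM in CGSxSSA and 0.501 to 0.915 CPM in Taipei. Os09g0391501 was lower in CGS, at 0.102 to 0.325 CPM, with 0.643 to 1.42 CPM in CGSxSSA and 2.74 to 4.28 CPM in Taipei. The way these genes were picked places every other transgenic library between CGS and Taipei, and they were not tested.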
